A study of Mus musculus with 3 samples.

Results

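Early B cells at day 21 are the 173 cell barcodes of the day 21 library that carried transcripts of the first steps of B cell formation. A barcode was kept when it held at least 200 genes and at most 20% mitochondrial transcripts. It was called early B when it held at least 2 unique molecular identifiers (UMIs, each counting 1 captured transcript) summed over Vpreb1, Vpreb2, Igll1, Rag1 and Dntt and at least 2 summed over Cd79a and Cd79b. These barcodes made up 173 of the 10670 kept barcodes of that library and of the 20913 kept in all 3 libraries. They were compared with the 464 mature B barcodes of the same library, which held at least 2 UMIs of Ms4a1, Ighd and Fcmr and none of the 5 early genes. Because measured values chose both classes, the levels of these 10 genes are given as a description.

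The series asked how a tumour outside the liver changes the liver. Non-parenchymal cells, left after most hepatocytes are removed, came from the perfused livers of female Balb\c mice and were sequenced with the 10x droplet 3' method. The 3 libraries, with no replicate of any, were a PBS-injected control labelled 8 weeks of age, a library labelled 4T1 at day 4 and 8 weeks, and a library labelled 4T1 at day 21 and 11 weeks. 4T1 is a mouse mammary carcinoma cell line derived from that strain, here injected orthotopically. The number of mice in a library and the day on which the control was collected are not given in the sources used here. Time after injection and age therefore cannot be told apart, and neither can the condition and the library.

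B cells form in adult mice mainly in the bone marrow, and in the fetus in the liver. A progenitor first assembles its heavy chain gene from V, D and J segments, which the RAG1 and RAG2 proteins cut and to which the enzyme TdT, encoded by Dntt, adds bases at the joins. A finished heavy chain is tested at the cell surface with a stand-in light chain made of the VPREB and IGLL1 proteins, in the pre-B cell receptor. Cells that pass divide, then switch the RAG genes on again to assemble a true light chain, kappa or lambda, and leave as IgM-bearing immature B cells that later gain IgD and antigen presentation by MHC class II. CD79A and CD79B carry the signal of both forms of the receptor.

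The 250 bases before the RefSeq transcription start (GRCm38.p6) are shown for 3 of the genes that define the cells, to show where motifs of 2 B lineage factors lie. The motifs searched on both strands were CAGGTG, an E-box of the kind bound by E2A (encoded by Tcf3), and CCCNNGGG, the core letters bound by EBF1. They do not overlap here, and capitals mark the matches. RefSeq windows were matched by symbol for all 5 genes of the rule and for Vpreb3 and Rag2. The windows are chr16:16869256-16869505 (minus strand) for Vpreb1, chr16:16863986-16864235 (minus strand) for Igll1 and chr2:101649533-101649782 (minus strand) for Rag1.
Vpreb1: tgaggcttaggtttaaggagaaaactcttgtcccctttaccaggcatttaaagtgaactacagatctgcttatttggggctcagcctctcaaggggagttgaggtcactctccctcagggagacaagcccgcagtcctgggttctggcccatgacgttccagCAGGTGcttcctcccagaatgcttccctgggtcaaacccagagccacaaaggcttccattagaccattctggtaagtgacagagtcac
Igll1: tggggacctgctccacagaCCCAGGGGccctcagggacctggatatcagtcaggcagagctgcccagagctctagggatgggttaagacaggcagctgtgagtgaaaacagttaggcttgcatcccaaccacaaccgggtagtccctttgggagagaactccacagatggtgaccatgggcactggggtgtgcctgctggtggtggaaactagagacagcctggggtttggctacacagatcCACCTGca
Rag1: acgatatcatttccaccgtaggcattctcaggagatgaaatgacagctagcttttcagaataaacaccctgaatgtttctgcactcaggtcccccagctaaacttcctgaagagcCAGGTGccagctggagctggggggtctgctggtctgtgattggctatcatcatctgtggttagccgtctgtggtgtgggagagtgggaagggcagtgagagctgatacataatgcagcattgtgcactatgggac
The letters CAGGTG, on either strand, stood 88 bases before the start of Vpreb1, 8 before that of Igll1 and 135 before that of Rag1. A copy also stood 232 bases before the RefSeq start of Vpreb2, which is 95 bases before the GENCODE start of its coding transcript, because 137 of the 250 window bases lie in exons of that transcript. In the Vpreb1 window 190 bases lie in exons of a noncoding transcript of the gene. No copy stood in the window of Dntt, so 4 of the 5 genes held it, against 17.2% of 32851 promoters. CCCNNGGG was found before Igll1 alone of the 5, at 231 bases, against 11.8% of promoters. Vpreb1 and Vpreb2 share an identical run of 91 bases in these windows that holds CAGGTG. The 30 bases that begin 18 bases before CAGGTG are these, from chr16:16869332-16869361 (minus strand) for Vpreb1 and chr16:17980315-17980344 (plus strand) for Vpreb2.
Vpreb1 stretch: tggcccatgacgttccagCAGGTGcttcct
Vpreb2 stretch: tggcccatgactttccagCAGGTGcttcct
They differ at 1 position, G12T, counted from 1 at the 5' end with the base of Vpreb1 first. A match describes the letters in the window and does not show that a factor binds there. Near the other end of the transcript, where 3' reads fall, the last 300 bases of the Vpreb1 and Vpreb2 transcripts were 72.5% identical over 342 aligned columns, so the division of counts between these genes is uncertain.

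Early B barcodes were found almost only in the day 21 library. The control library held 0 among 4734 kept barcodes, which allows a share of up to 0.0634% by a floor of 3 barcodes and 0.0779% by the exact interval, the day 4 library held 1 among 5509 (0.0182%, exact 95% binomial interval 0.00046 to 0.101), and the day 21 library held 173 among 10670 (1.62%, 1.39 to 1.88). The share at day 21 was at least 25.6-fold higher than in the control, taken against a floor of 3 barcodes (20.6-fold at the lower exact bound), and 89.3-fold (15.8 to 3548) higher than at day 4, where 1 barcode was found. Mature B barcodes made up 6.80% (6.10 to 7.56) of the control library, 4.12% (3.61 to 4.68) of the day 4 library and 4.35% (3.97 to 4.75) of the day 21 library. Their share at day 21 was thus 0.639 of that in the control (0.553 to 0.739) and 1.06 of that at day 4 (0.899 to 1.24). Of the barcodes with at least 2 Cd79a and Cd79b UMIs, early B barcodes were 0 of 368 in the control library. This allows up to 0.815% by a floor of 3 barcodes and 0.997% by the exact interval. Early B barcodes were 1 of 295 in the day 4 library and 173 of 935 in the day 21 library (18.5%, 16.1 to 21.1). All intervals cover counting error only and leave out variation between mice. A share of a library can also move when other cells enter it or leave it.

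**Figure D1:**
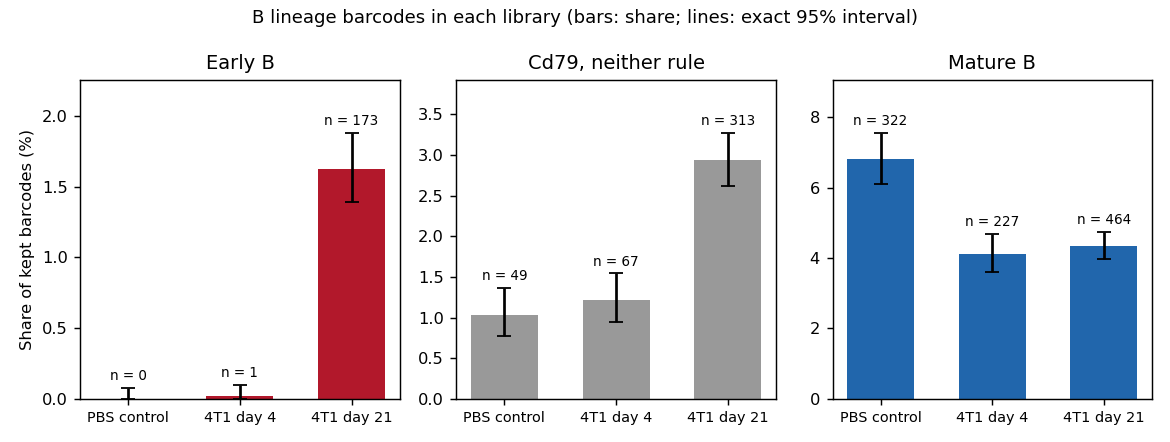
Share of kept barcodes (%) that were early B, mature B or Cd79-bearing but met neither rule, in the control, day 4 and day 21 libraries. Bars are the share, lines the exact 95% binomial interval, and numbers the barcodes counted. The early B share is 0 in the control and 1.62% at day 21, while the mature B share is highest in the control, at 6.80%.

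Depth differed between the libraries. The median kept barcode held 4217.5 UMIs in the control library, 4462 in the day 4 library and 3144 in the day 21 library, so the day 21 library had the lowest median. When each barcode was thinned to 1000 UMIs, the early B rule was met by 0 of 4257 barcodes in the control library, 0 of 4947 in the day 4 library and 80 of 9531 in the day 21 library. The whole libraries held 27191082, 34833820 and 51913215 UMIs in the same order, so the day 21 library had the highest total. Of the barcode sequences, 13 to 32 were shared by a pair of libraries, and 0 of these were early B.

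Of the 5 genes of the rule, all but Dntt were near 0 outside the day 21 library, and there they sat mainly in the early B barcodes. Over all kept barcodes, Vpreb1 (chromosome 16, 16868403 to 16870843, minus strand, GRCm38) had 5 UMIs in the control library, 23 in the day 4 library and 1021 in the day 21 library, and 958 of the last were in early B barcodes (93.8%). Vpreb2 (chromosome 16, 17980428 to 17981273, plus strand) had 0, 0 and 256 UMIs in the same order, with 249 in early B barcodes. Igll1 (chromosome 16, 16860671 to 16863985, minus strand) had 0, 0 and 745, with 715 in early B barcodes. These 3 genes, which encode the surrogate light chain, were therefore near or at 0 in the control and day 4 libraries. Rag1 (chromosome 2, 101638282 to 101649501, minus strand) had 2 UMIs in the control library, 0 in the day 4 library and 198 in the day 21 library, of which 134 were in early B barcodes. Dntt (chromosome 19, 41029275 to 41059525, plus strand) had 48, 32 and 775, of which 312 (40.3%) were in early B barcodes. Dntt thus had a source outside the early B barcodes in each library.

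Within the 173 barcodes the genes were combined in many ways. The sum of the 5 genes had a lowest value of 2 UMIs, a median of 12 and a highest of 51. Vpreb1 was found in 136 barcodes, Igll1 in 130, Vpreb2 in 90, Rag1 in 76 and Dntt in 67. Of the 5 genes, 32 barcodes held 1, 39 held 2, 41 held 3, 39 held 4 and 22 held all 5. To see a gene apart from its own use in the rule, it was left out and the other 4 were asked for 2 UMIs. Vpreb1 was then found in 125 of 162 barcodes (77.2%, 69.9 to 83.4), Igll1 in 122 of 165 (73.9%, 66.5 to 80.5) and Vpreb2 in 90 of 173 (52.0%, 44.3 to 59.7). Dntt was found in 64 of 170 (37.6%, 30.3 to 45.4) and Rag1 in 43 of 140 (30.7%, 23.2 to 39.1). Each of these shares comes from another set of barcodes, chosen by the genes that remain, so no order is read from them.

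Barcodes at the edge of the rule differed in kind. The 22 members with exactly 2 early UMIs all held Rag1, which supplied 40 of their 44 early UMIs, and their Igkc level was 2013 CPM, the UMIs of a gene per 1000000 UMIs of the class. Just outside, 66 barcodes with Cd79 transcripts held 1 early UMI, and for 49 of them it was Rag1. Another 22 barcodes held enough early UMIs but 1 Cd79 UMI, and 42 held 0 Cd79 UMIs. Dntt was found in 20 and 38 of these, and their levels of Flt3 (265 and 235 CPM) and Cd34 (398 and 400.1 CPM), both genes of uncommitted progenitors, stood above the 17.7 and 33.3 CPM of the early B barcodes. A further 9 barcodes met the rule but failed the cell filter, and 3 members also held 2 or more UMIs of the mature B genes.

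Genes that the rule did not use placed the barcodes in the early B lineage. Vpreb3, which encodes a protein of the pre-B and B cell endoplasmic reticulum, was found in 168 of 173 early B barcodes, at 1794 CPM, against 266 CPM in mature B barcodes. Rag2 (chromosome 2, 101624718 to 101632529, plus strand), the neighbour and partner of Rag1, had 31 UMIs in 27 early B barcodes and 0 UMIs in 464 mature B barcodes, which was at least 12.9-fold higher against a floor of 3 UMIs over the class. The lineage factors Ebf1 and Pax5 were present in both classes, Ebf1 in 97.1% of early and 90.3% of mature B barcodes and Pax5 in 66.5 and 53.9%. T and endothelial barcodes of the library were chosen by at least 2 T marker and 3 endothelial marker UMIs, and should lack these genes. Both also had to hold 0 UMIs of Cd79a and Cd79b, which leaves out barcodes with those B cell transcripts and can lower the values that follow. The T barcodes also held neutrophil markers, at 378416 CPM against 186480 CPM in all kept barcodes. In 990 T and 1805 endothelial barcodes Vpreb3 was found in 0.404 and 0.277%, Ebf1 in 0.707 and 0.776% and Vpreb1 in 0.303 and 0.499%. The median depths were 3848 UMIs in T and 2796 in endothelial barcodes, against 3708 in early and 1552.5 in mature B barcodes. With each barcode thinned to 1000 UMIs, Vpreb3 was found in 83.5% of 158 early B and 21.3% of 432 mature B barcodes, and Sox4 in 46.2 and 2.78%.

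**Figure D2:**
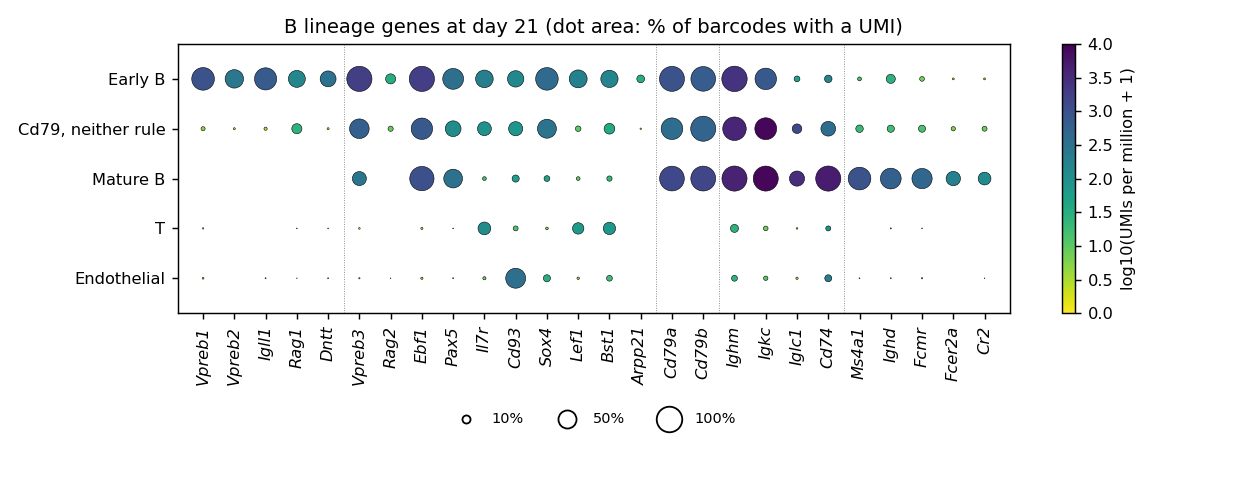
Genes of the B lineage (columns) in 5 classes of day 21 barcodes (rows). Dot area is the share of barcodes with a UMI and colour the log10 of CPM plus 1. The first 5 genes chose the early B barcodes and Ms4a1, Ighd and Fcmr the mature ones. Vpreb3, Il7r, Sox4 and Lef1 are found in more early than mature B barcodes, and Cd74 in 8.67 against 96.8%.

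For the comparison with mature B cells the UMIs of each class were summed, 961411 over the early and 1197129 over the mature B barcodes. Of the early sum, 746589 UMIs came from 80 barcodes with 2 or more UMIs of Mki67 and Top2a, called dividing here. The other 93 gave 214822. Of the mature sum, 972182 came from the 445 barcodes that were not dividing. The ratios therefore set mainly dividing early B transcripts against mainly non-dividing mature ones. A log2 ratio is of CPM in early over mature B, with 0.5 UMIs added to each sum and an exact 95% interval. Of 8481 genes with at least 20 UMIs over both sums, 1172 were higher in early B by 2-fold or more (13.8%) and 1007 lower by 2-fold or more (11.9%), and the median of all genes was 0.12. These shares are the background for the counts of list members that follow. With dividing barcodes left out of both classes, the shares were 13.8 and 9.28% of 6619 genes. Genes with 0 UMIs in a class are given by a bound against 3 UMIs, printed as at least that fold. This bound leaves out counting error in the other class, so the lower exact limit can lie below it. Setting such genes to the bound left each list median quoted for this comparison as it was. No test between classes was made, because each rests on the cells of 1 library.

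V(D)J recombination genes outside the rule were higher as a sum, with 1207 CPM in early against 383 CPM in mature B barcodes (log2 ratio 1.65, 1.50 to 1.81). Of 12 measured genes, 4 were at least 2-fold higher, 0 were at least 2-fold lower, and the median was 0.24. Besides Rag2 these were Lig4, the ligase that seals the broken ends, with 37.4 against 5.01 CPM (2.81, 1.64 to 4.44), and Xrcc6, which encodes the end-binding protein Ku70, with 127 against 21.7 CPM (2.53, 1.93 to 3.22). Hmgb1, a chromatin protein that helps the RAG complex bind DNA and is also made in dividing cells, had 845 against 210.5 CPM (2.00, 1.80 to 2.21). The end-joining kinase gene Prkdc differed little, at 19.8 against 21.7 CPM (-0.13, -1.07 to 0.77). The sum is carried mostly by Hmgb1, with 812 of the 1160 UMIs in early B barcodes.

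Transcription factors of B lineage commitment were not uniformly higher. Of 23 measured, 7 were higher by 2-fold or more and 4 were lower, with a median of -0.04. With dividing barcodes left out of both classes, 7 of 20 were higher and 3 lower, with a median of 0.62. The sum of the list moved from 0.43 to 0.99. The values that follow are with all barcodes. Lef1, a factor of WNT signalling used by lymphoid progenitors, had 181 against 9.19 CPM (4.24, 3.42 to 5.33) and was found in 49.1% of early and 2.16% of mature B barcodes. Sox4, needed for survival of early B progenitors in mice, had 432 against 49.3 CPM (3.12, 2.73 to 3.55), and Myb, a regulator of progenitor growth, 403 against 53.5 CPM (2.90, 2.53 to 3.32). Tcf3, which encodes E2A, was also higher, at 336 against 122 CPM (1.46, 1.18 to 1.75), and Ebf1 less so, at 1907 against 1058 CPM (0.85, 0.75 to 0.95). Pax5, which holds cells in the B lineage, had 357 against 327 CPM (0.13, -0.09 to 0.34). Among the lower genes were Ikzf3, the Aiolos factor of later B cells, with 45.8 against 157 CPM (-1.77, -2.29 to -1.30), and Mef2c, with 268 against 619 CPM (-1.20, -1.42 to -0.999).

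Receptors for the growth factors of early B cells and their targets went both ways. Of 16 measured genes of the IL7, FLT3 and KIT list, 3 were higher by 2-fold or more and 6 were lower. With dividing barcodes left out of both classes, 3 of 14 were higher and 2 lower. Il7r, the receptor chain through which IL7 sustains pro-B and pre-B cells in mice, had 196 CPM in early against 15.9 CPM in mature B barcodes (3.59, 2.94 to 4.39). It was found in 47.4% of early and 2.16% of mature B barcodes, and in 24.9% of T barcodes. Socs2, an inhibitor of cytokine signalling, had 245 against 7.52 CPM (4.95, 4.08 to 6.18), and the cyclin D3 gene Ccnd3 had 564 against 186 CPM (1.60, 1.37 to 1.83). On the other side stood the survival gene Bcl2, with 14.6 against 119 CPM (-2.98, -3.93 to -2.23), and Il2rg, which encodes the chain that pairs with IL7R, with 20.8 against 94.4 CPM (-2.15, -2.95 to -1.49). In the list of survival and apoptosis genes, Bcl2l1, which encodes BCL-XL, was the 1 of 13 at least 2-fold higher, at 45.8 against 14.2 CPM (1.66, 0.85 to 2.59), and 4 were at least 2-fold lower. With dividing barcodes left out of both classes, 1 of 12 genes of this list was higher and 1 lower.

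Genes of the pre-B and B cell receptor signal were closer to the mature level. Of 18 measured outside the rule, 0 were higher by 2-fold or more and 3 were lower, with a median of -0.33. The adaptor gene Blnk had 301 CPM in early against 184 CPM in mature B barcodes (0.71, 0.45 to 0.97) and the kinase gene Syk had 209 against 309.9 CPM (-0.57, -0.82 to -0.32). The 3 lower genes were those of the inhibitory receptors CD22, with 39.5 against 135 CPM (-1.76, -2.33 to -1.26), and Fcgr2b, with 83.2 against 225 CPM (-1.43, -1.81 to -1.07), and of the kinase Lyn, with 98.8 against 205 CPM (-1.05, -1.41 to -0.70). Blnk and Syk were thus within 2-fold, and Lyn was just past it. With dividing barcodes left out of both classes, 2 of 17 genes of this list were higher and 2 lower, with a median of 0.22.

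Surface and marker genes of early B cells were higher in 10 of 16 cases and at least 2-fold lower in 0, with a median of 1.80. Cplx2, which encodes a complexin, had 145 CPM in early against 6.68 CPM in mature B barcodes (4.35, 3.42 to 5.68). The gene Enpep, of the pre-B cell antigen BP-1, had 158 against 13.4 CPM (3.52, 2.82 to 4.41), Tifa had 258 against 24.2 CPM (3.39, 2.85 to 4.02) and Bst1, of the antigen BP-3, had 148 against 20.9 CPM (2.80, 2.20 to 3.50). Cd24a, of the heat-stable antigen, had 1015 against 190.5 CPM (2.41, 2.20 to 2.63). Arpp21 had 28 UMIs in early and 0 in mature B barcodes, at least 11.6-fold higher. The chemokine receptor gene Cxcr4 and the integrin gene Itga4, both involved in holding B progenitors in the marrow, had 183 against 354 CPM (-0.95, -1.21 to -0.70) and 146 against 149.5 CPM (-0.04, -0.37 to 0.29).

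Light chain constant genes were lower in all 4 cases, and heavy chain Ighm much less so. Igkc, of the kappa chain, was found in 122 of 173 early B barcodes (70.5%, 63.1 to 77.2) with a median of 3 UMIs, against 445 of 464 mature B barcodes (95.9%, 93.7 to 97.5) with a median of 11. In T and endothelial barcodes, which had to hold 0 UMIs of Cd79a and Cd79b, it was found in 3.33 and 2.94%. The early B share stood above these values. After thinning, the shares were 46.2% in early and 92.8% in mature B barcodes, against 0.721% in T barcodes. Summed, Igkc had 783 against 8556 CPM (-3.45, -3.56 to -3.34), and the 4 light chain genes together had a log2 ratio of -3.81 (-3.91 to -3.72). Antibody-secreting barcodes weigh on the mature side of that ratio. 1 mature B barcode held 2910 of the 3661 Iglc1 UMIs, and 5 held 40.4% of the Igkc UMIs, and with every barcode weighted equally the ratio was -2.68. Ighm had 2565 against 4110 CPM (-0.68, -0.75 to -0.61) and was found in 171 of the early B barcodes. Class-switched Ighg1 had 0 UMIs in early and 798 in mature B barcodes, 795 of them in 1 barcode.

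MHC class II and mature B genes were lower in the early B barcodes. All 11 measured MHC class II genes were at least 2-fold lower, with a median of -4.15. Cd74, the invariant chain that escorts MHC class II, had 158 CPM in early against 4962 CPM in mature B barcodes (-4.97, -5.21 to -4.74), H2-DMb2, which helps load peptides, had 1 against 297 UMIs (-7.32, -13.2 to -5.41), and H2-Aa, of an MHC class II chain, had 119.6 against 2635 CPM (-4.46, -4.74 to -4.19). Ciita, the master activator of these genes, had 9 against 210 UMIs (-4.15, -5.38 to -3.28). Cd74 was found in 15 of 173 early B barcodes (8.67%), close to the 7.48% of endothelial barcodes and above the 3.84% of T barcodes, and after thinning in 3.16, 4.29 and 1.54%. 1 early B barcode held 97 of the 152 Cd74 UMIs. Whether free RNA supplied the Cd74 UMIs of early B barcodes was not tested. Summed over the list the log2 ratio was -4.31 (-4.43 to -4.19), with -5.48 without barcodes marked as doublets and -3.11 when barcodes needed 500 genes and at most 10% mitochondrial UMIs.

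Of 17 mature B genes outside the rule, 0 were higher by 2-fold or more and 15 were lower, with a median of -3.03. They summed to 938 CPM in early against 4616 CPM in mature B barcodes (-2.30, -2.40 to -2.20), so transcripts of the list were still present in early B barcodes. Among those at higher levels in early B were the tetraspanin gene Cd37, with 265 against 632 CPM (-1.25, -1.46 to -1.05), Klf2, of a factor that holds lymphocytes at rest, with 149.8 against 873 CPM (-2.54, -2.80 to -2.29), and Fcrla, an intracellular Fc receptor-like protein of B cells, with 149 against 232 CPM (-0.64, -0.94 to -0.35). Fcer2a, which encodes the IgE receptor CD23 of follicular B cells, had 1 UMI in early and 213 in mature B barcodes (-6.84, -12.7 to -4.92). The complement receptor gene Cr2 had 2 against 150 UMIs (-5.60, -8.97 to -4.03), and the scaffold gene Bank1 had 7 against 481 (-5.69, -7.11 to -4.73). Cd83, an activation marker, had 0 UMIs in early and 149 in mature B barcodes, at least 39.9-fold lower. Genes of B cell homing were lower in 10 of 15 cases and at least 2-fold higher in 0, with a median of -1.40. Those with the lowest ratios were the receptor genes Ccr6 (1 against 67 UMIs), Gpr183 (4 against 127) and Cxcr5 (5 against 96), which place mature B cells in lymphoid follicles. S1pr1, the receptor for exit into blood, had 15.6 against 107 CPM (-2.74, -3.66 to -2.001).

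**Figure D3:**
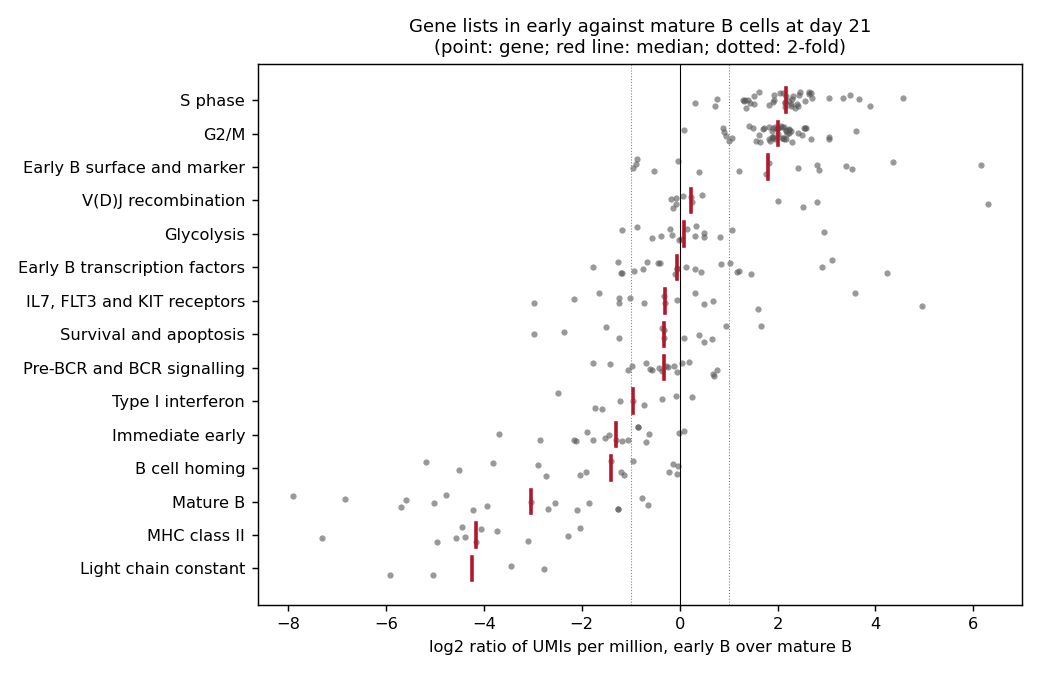
Log2 ratio of CPM in early over mature B barcodes at day 21, by gene list, for genes outside the rule with at least 20 UMIs over both sums. Each point is a gene, red lines are list medians and dotted lines mark 2-fold. A gene with 0 UMIs in a class is drawn at its ratio with 0.5 UMIs added, which is no bound. Cell division lists lie to the right, with medians of 2.17 and 2.01, and MHC class II, mature B and light chain genes to the left.

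Among the gene lists, those of cell division had the most genes higher in early B barcodes. Of 43 S phase genes, 40 were at least 2-fold higher and 0 lower, with a median of 2.17, and of 51 measured G2/M genes, 47 were higher and 0 lower, with a median of 2.01. The proliferation gene Mki67 had 519 CPM in early against 80.2 CPM in mature B barcodes (2.69, 2.38 to 3.02). Among S phase genes, Dscc1, of sister chromatid cohesion, had 28 against 1 UMI (4.56, 2.53 to 10.5), Uhrf1, which maintains DNA methylation, had 236 against 20.9 CPM (3.47, 2.90 to 4.16), and the replication licensing gene Cdc6 had 41 against 3 UMIs (3.88, 2.44 to 6.42). Among G2/M genes, Gtse1, of the mitotic spindle, had 24 against 2 UMIs (3.61, 1.89 to 7.03), Ckap2l, also of the spindle, had 71.8 against 8.35 CPM (3.04, 2.14 to 4.23), and Nuf2, of the kinetochore, had 36 against 5 UMIs (3.05, 1.81 to 4.87). As sums the lists had log2 ratios of 1.99 (1.90 to 2.07) and 1.92 (1.87 to 1.97).

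Early B barcodes differed among themselves in these transcripts. With dividing barcodes defined by 2 or more UMIs of Mki67 and Top2a, which also belong to the G2/M list, 80 of 173 early B barcodes were dividing (46.2%, 38.6 to 54.0), against 19 of 464 mature B barcodes (4.09%, 2.48 to 6.32). Dividing early B barcodes held a median of 8293 UMIs and the other 93 early B barcodes 1811, so depth moved with this split. At an equal depth of 1000 UMIs, either gene was found in 36.1% of early and 3.24% of mature B barcodes. When dividing barcodes were left out of both classes, 93 early and 445 mature B barcodes remained, and 13.8% of 6619 genes were higher in early B by 2-fold or more and 9.28% lower. Of 21 measured S phase genes 12 were then higher and 0 lower, with a sum of 1578 CPM in early against 758 CPM in mature B barcodes (1.06, 0.87 to 1.25). Of 15 measured G2/M genes 7 were higher and 0 lower, with 2798 against 1317 CPM (1.09, 0.95 to 1.23). Both sums thus remained higher in early B, by less than with all barcodes. When they were left out of the early sum alone, so that the 19 dividing barcodes stayed in the mature sum, the backgrounds were 11.5 and 9.15% of 7257 genes and the sums stood at 0.36 and -0.23.

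**Figure D4:**
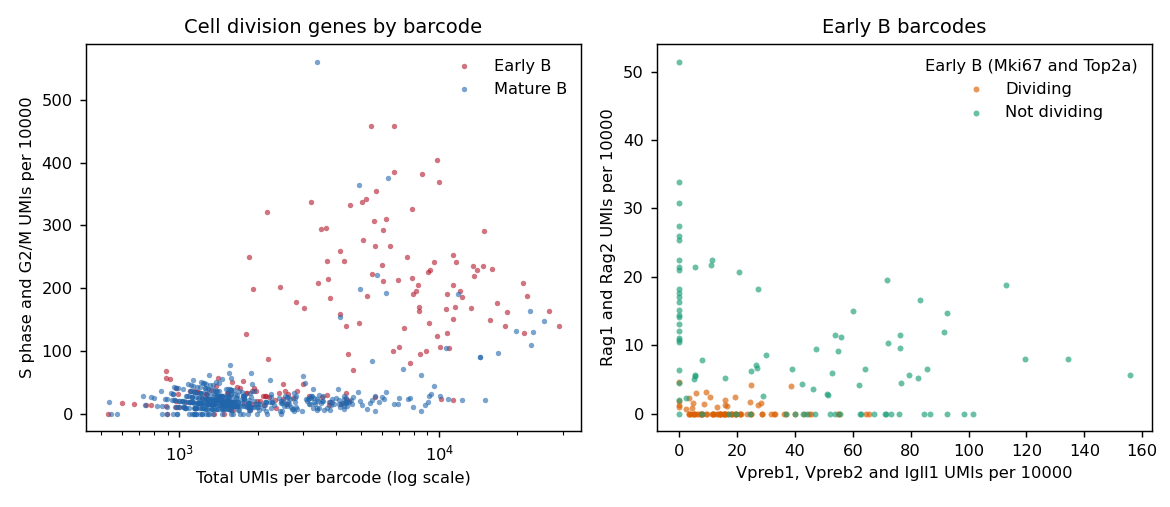
Left, total UMIs per barcode (log scale) and S phase plus G2/M UMIs per 10000, for early and mature B barcodes of day 21. Right, UMIs per 10000 of Vpreb1, Vpreb2 and Igll1 against those of Rag1 and Rag2 in early B barcodes, by whether they held 2 or more Mki67 and Top2a UMIs. Dividing barcodes are deep and lie low on the Rag axis, where 22 of 80 held a Rag UMI against 68 of 93 of the others, and Rag1 is a gene of the rule.

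Rag1 and Rag2 differed with this split. Rag1 or Rag2 was found in 22 of 80 dividing barcodes (27.5%, 18.1 to 38.6) and in 68 of 93 non-dividing ones (73.1%, 62.9 to 81.8), and at 1000 UMIs in 3.75% of 80 and 48.7% of 78. These shares are a description, because Rag1 is a gene of the rule, and a shallow barcode needs a higher level of it to reach 2 UMIs. When Rag1 was left out of the rule, 140 barcodes remained, and Rag1 was found in 10 of 78 dividing ones (12.8%, 6.32 to 22.3) and 33 of 62 non-dividing ones (53.2%, 40.1 to 66.0). At equal depth it was found in 2.56% of 78 and 24.5% of 53, and its level was 16.4 against 311 CPM. Rag2, which the rule did not use, was found in 12 of 80 dividing (8.00 to 24.7%) and 15 of 93 non-dividing barcodes (16.1%, 9.32 to 25.2), and at equal depth in 0 of 80 and 5 of 78. Its level was 17.4 CPM in dividing against 83.8 CPM in non-dividing barcodes (log2 ratio -2.25, -3.42 to -1.16). The Rag2 shares thus differed little before thinning, while its level per total UMIs was lower in dividing barcodes. The surrogate light chain was found in 76 of 80 dividing and 68 of 93 non-dividing barcodes, and in 76.3 and 67.9% at equal depth. Igkc at 5 or more UMIs was found in 34 of 80 dividing and 25 of 93 non-dividing barcodes, but at equal depth any Igkc UMI was found in 36.3% of dividing and 56.4% of non-dividing barcodes, so no order is read from these shares.

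Of 5935 genes measured in this split, 775 were higher in dividing barcodes by 2-fold or more (13.1%) and 855 lower by 2-fold or more (14.4%). Among transcription factors 0 of 21 were higher and 8 lower, including Ebf1, with 1381 CPM in dividing against 3733 CPM in non-dividing barcodes (-1.44, -1.57 to -1.30), and Foxo1, which activates the Rag genes in mice, with 46.9 against 182 CPM (-1.95, -2.65 to -1.26). The heat-stable antigen gene Cd24a went the other way, with 1149 against 549 CPM (1.06, 0.79 to 1.36), and so did the glycolysis genes Gapdh (634 against 289 CPM) and Tpi1 (216 against 97.8 CPM). Immediate early genes were lower in 12 of 13 cases. The antiproliferative gene Btg1 had 196 against 1173 CPM (-2.58, -2.89 to -2.28) and Btg2 had 81.7 against 456 CPM (-2.48, -2.97 to -2.01). The lambda constant gene Iglc3 had 21.4 against 205 CPM (-3.23, -4.18 to -2.40), but 5 barcodes held 73.3% of its 60 early B UMIs. At 5 or more UMIs, Iglc1 to Iglc3 were found in 2 of 80 dividing and 4 of 93 non-dividing barcodes. Markers of other cells also moved with this split. Those of granule precursors summed to 679 CPM in dividing against 107 CPM in non-dividing barcodes (2.64, 2.06 to 3.34). MHC class II genes summed to 734 against 261 CPM (1.48, 1.10 to 1.92) and neutrophil markers to 16312 against 34722 CPM (-1.09, -1.13 to -1.05). The neutrophil genes S100a8 and S100a9 had a median of 9 UMIs in dividing and 4 in non-dividing barcodes, with highest values of 3874 and 3993. Few barcodes thus weigh on the neutrophil sums, which do not describe a typical barcode of either set. The same holds for MHC class II and granule transcripts. Of all early B UMIs, the 5 highest barcodes held 92.1% for Cd74 and 87.8% for H2-Aa. For the primary granule gene Prtn3 they held 90.6%. Plasmacytoid dendritic cell, stellate and stem and progenitor markers were lower in dividing barcodes, at -1.06, -1.28 and -1.26. Their part in the difference was not tested.

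Dntt marked a further difference. Igkc at 5 or more UMIs was found in 8 of 67 barcodes with Dntt (11.9%, 5.30 to 22.2) and in 51 of 106 without it (48.1%, 38.3 to 58.0), at median depths of 3498 and 4210 UMIs. At equal depth any Igkc UMI was found in 26.2% of barcodes with Dntt and 58.8% of those without. Of 5935 genes, 519 were at least 2-fold higher with Dntt (8.74%) and 241 lower (4.06%). Arpp21 had 25 UMIs with Dntt and 3 without (4.11, 2.59 to 6.68), Cplx2 had 277 against 88.7 CPM (1.64, 1.14 to 2.15), Lef1 had 341 against 114 CPM (1.58, 1.14 to 2.03) and Bst1 had 267 against 97.5 CPM (1.45, 0.96 to 1.95). The lower genes included Fcrla, with 35.1 against 197 CPM (-2.42, -3.58 to -1.56), Ikzf3, with 3 against 41 UMIs (-2.32, -4.86 to -0.88), Cd24a (-1.23, -1.50 to -0.98) and Ighm, with 1503 against 3012 CPM (-1.002, -1.16 to -0.85). Here too markers of other cells moved. Neutrophil markers summed to 8567 CPM with Dntt against 25416 CPM without it (-1.57, -1.63 to -1.51). S100a8 and S100a9, however, had medians of 5 and 5.5 UMIs and highest values of 1133 and 3993, so few barcodes weigh on the neutrophil sums. Stem and progenitor markers summed to 1004 against 489 CPM (1.04, 0.80 to 1.27) and plasmacytoid dendritic cell markers to 1057 against 432 CPM (1.29, 1.06 to 1.53). Stellate markers summed to 744 against 248 CPM (1.58, 1.29 to 1.88), and 1 early B barcode held 196 of their 380 UMIs. Their part in the difference was not tested.

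The 2 splits together gave 4 sets, of 67 barcodes with Dntt, 55 dividing ones without Dntt, 27 non-dividing ones without Dntt but with a surrogate light chain UMI, and 24 with neither. The last set holds 2 or more Rag1 UMIs by the rule. In this order Ighm stood at 1503, 2740.3, 2960 and 5968 CPM and Igkc at 407, 757, 1727 and 2071 CPM. Il7r was found in all sets, at 179, 203, 106 and 301 CPM, and Ebf1 at 2630 and above except in the dividing set, at 1251. Lef1 had 341, 102, 317 and 18.8 CPM, the last from 1 UMI, and Socs2 had 344, 198, 423 and 37.7 CPM. Cd2, an adhesion receptor of later B cells, had 7.02, 8.82, 176 and 264 CPM, Fcrla had 35.1, 159, 282 and 508 CPM and Cxcr4 had 249, 104, 194 and 659 CPM. Ms4a1, a gene of the mature rule, had 1, 12, 1 and 0 UMIs in these sets, whose median depths were 3498, 9542, 1617 and 1353 UMIs. Iglc1 in the last set, with 45 UMIs, came largely from 1 barcode, which held 35.

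**Figure D5:**
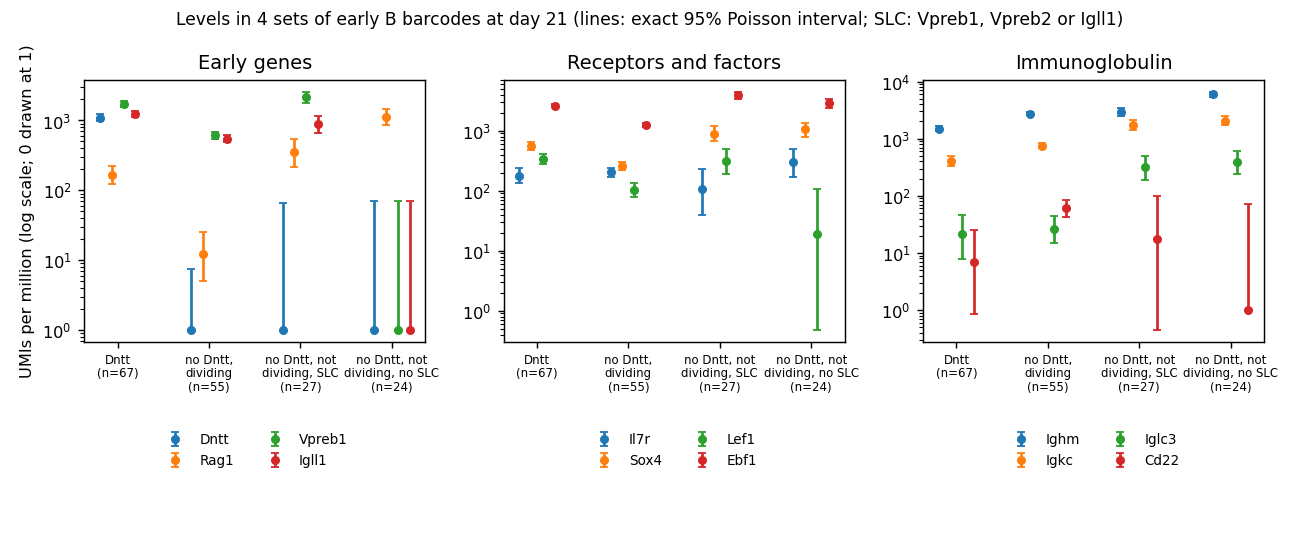
CPM (log scale) of 12 genes in 4 sets of early B barcodes at day 21, split by Dntt, by Mki67 and Top2a, and by the surrogate light chain (SLC) genes. Lines are exact 95% Poisson intervals and 0 is drawn at 1. Dntt, Vpreb1 and Igll1 are 0 where the split sets them so, and Ighm is highest in the set without SLC, at 5968. In the non-dividing sets without Dntt, Igkc is at 1727 with SLC and 2071 without it, with overlapping intervals.

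Outside the lists, 12 genes with the highest and 12 with the lowest ratios to mature B are given. Fcrl6, an Fc receptor-like gene, had 72 UMIs in early and 0 in mature B barcodes, at least 29.9-fold higher. Myl10, a myosin light chain gene known from lymphocyte precursors, had 69 against 0 (at least 28.6-fold) and Gfra1, a receptor for GDNF family factors, 53 against 0 (at least 22.0-fold). Rsph1, of the radial spoke of motile cilia, had 152 against 2.51 CPM (5.70, 4.35 to 8.22) and was found in 41.0% of early and 0.647% of mature B barcodes. A second radial spoke gene, Rsph9, had 69.7 against 5.01 CPM (3.69, 2.60 to 5.29), and Capsl, a calcium-binding protein gene, 56.2 against 2.51 CPM (4.28, 2.86 to 6.81). The others were Epb41l4b, Tnfrsf19, Elovl6, Ptgr1, Bcat1 and Cenpn, with log2 ratios of 3.89 to 5.04. Of these, Elovl6 lengthens fatty acids, Bcat1 breaks down branched-chain amino acids and Ptgr1 inactivates prostaglandins and leukotrienes.

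Fcrl6 and Myl10 had their highest levels in the set with Dntt. In the 4 sets, in the same order as above, Fcrl6 had 65, 2, 5 and 0 UMIs and Myl10 had 45, 23, 1 and 0, whereas Rsph1 had 25, 95, 25 and 1, and was highest per total UMIs in the set without Dntt or division but with the surrogate light chain, at 440.5 CPM. In T and endothelial barcodes Fcrl6 was at 0 UMIs in both, Myl10 at 0.201 and 0 CPM and Rsph1 at 8.02 and 0.463 CPM. On the lower side, Trim7, a ubiquitin ligase gene, had 1 UMI in early and 122 in mature B barcodes (-6.04, -11.9 to -4.11). The lysophosphatidylserine receptor genes Gpr174 and P2ry10 had 1 against 65 UMIs (-5.13, -11.0 to -3.18) and 4 against 122 (-4.45, -6.51 to -3.22). March1, whose product marks MHC class II for turnover, had 8.32 against 153 CPM (-4.12, -5.43 to -3.19), and Cd180, a relative of the Toll-like receptors, had 4.16 against 72.7 CPM (-3.96, -6.03 to -2.72). The other 7 were Setbp1, Pgap1, Rhof, Rasgrp3, Cyp4f18, Ptpn22 and Sapcd1, at -4.94 to -3.56.

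Among the remaining lists, 2 of 16 glycolysis genes were at least 2-fold higher in early B, the lactate carrier gene Slc16a1, with 132 against 16.7 CPM (2.95, 2.30 to 3.74), and Ldha, with 707 against 337 CPM (1.07, 0.89 to 1.25), and 1 was lower. Immediate early genes were lower in 11 of 17 cases and higher in 0, with Egr3 at 3 against 56 UMIs (-3.70, -6.23 to -2.28) and Egr1 at 17.7 against 131 CPM (-2.85, -3.71 to -2.17). Without dividing barcodes in either class 2 were higher and 4 lower. Of 9 type I interferon genes 0 were higher and 4 lower, with the nucleic acid sensor gene Zbp1 at 4 against 31 UMIs (-2.49, -4.60 to -1.14). The sum of this list was at -0.27 (-0.43 to -0.11). After dividing barcodes were left out of both classes, 1 of 8 was higher and 1 lower. The sum then stood at 0.53 (0.31 to 0.75), so its sign changed.

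Transcripts of other cell types were present in both B classes and most of their marker lists were lower in early B as sums. The 11 neutrophil markers summed to 20425 CPM in early, 45499 CPM in mature B and 186480 CPM in all kept barcodes, with 0 of them at 0 in early B and a median of 6 UMIs per early B barcode. The 10 T markers summed to 61.4 CPM in early, 81.9 CPM in mature B and 1476 CPM in T barcodes, with Cd3g, Trac and Cd4 at 0 in early B. The 9 endothelial markers summed to 599 CPM in early, 1097 CPM in mature B and 12458 CPM in endothelial barcodes, with 0 at 0. Camp, a secondary granule gene of neutrophils, had 1614 UMIs in early B barcodes, of which 5 barcodes held 96.1%. Doublet calling marked 14 of 173 early B and 50 of 464 mature B barcodes, against 6.86% of all kept ones. Without barcodes that held 5 or more UMIs of other lineages, 121 early and 374 mature B barcodes remained, and the S phase and G2/M sums stood at 2.45 and 2.69. Of the 13 lists, 3 had a higher sum in early B. The 10 stem and progenitor markers were at 642 CPM in early against 170.4 CPM in mature B barcodes, the 8 NK markers at 66.6 against 54.3 CPM with Prf1 and Klra8 at 0, and the 5 platelet markers at 2 UMIs in each class. Of the 6 measured stem and progenitor markers, 2 were at least 2-fold higher and 0 lower. Their median log2 ratio was 0.32, against 1.91 for the sum, so few genes carry that sum. The T barcodes used above also held neutrophil markers, at 378416 CPM. The part of such transcripts in single genes was not tested.

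Barcodes with Cd79 transcripts that met neither rule numbered 49 in the control library (1.04%), 67 in the day 4 library (1.22%) and 313 in the day 21 library (2.93%, 2.62 to 3.27). Of the 313, 128 were dividing (40.9%, 35.4 to 46.6), Rag1 or Rag2 was found in 58 (18.5%) and Vpreb3 in 58.8%. Their Sox4 level was 297 CPM, between 432 CPM in early and 49.3 CPM in mature B barcodes, and so was that of Il7r, at 91.3 CPM. They also held 7918 UMIs of the primary granule gene Prtn3 in 105 barcodes, and 42 were marked as doublets. The share of day 21 barcodes with features of B cell formation thus depends on where the rule is drawn, and a rule of 1 early UMI gave 2.24%.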

How the data were processed

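Raw UMI counts per gene and barcode were deposited for 31053 genes, and per the file headers Cell Ranger 3.1.0 wrote them. The submitters' processing notes name mm10 as the genome. Further steps are not given in the sources used here. Gene positions came from GENCODE M21 (GRCm38) and promoters from RefSeq. Sums and intervals used SciPy 1.17.1 under Python 3.11.15, with pandas 2.3.3, NumPy 2.4.6 and matplotlib 3.10.9. Shares carry exact Clopper-Pearson intervals at 95%, levels exact Poisson intervals and ratios exact conditional binomial intervals. These cover counting error only, without variation between cells or mice, and with 1 library per group no p-value was computed. Doublets were marked with Scrublet in Scanpy 1.11.5 at an expected 0.8% per 1000 barcodes and kept, except in 1 alternative. List examples are the members with the largest absolute ratios, to which others were added after values were seen. Genes outside lists are the 12 highest and 12 lowest ratios with 50 or more UMIs, detection in 10% of barcodes of the higher class and a level there no lower than in all kept barcodes, without ribosomal, mitochondrial, haemoglobin, immunoglobulin, T cell receptor or unnamed genes. Ratios were checked on simulated Poisson counts without variation between cells, so the check does not cover sums carried by few barcodes. The members, lists and tests were chosen with earlier results of these data known. Values by Dntt, division and their 4 sets, and the examples named in them, were chosen after values were seen.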

Additional observations from a re-analysis of the deposited data

Results flagged for a closer look

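Barcodes with 2 or more UMIs of the 5 early genes but under 2 Cd79a and Cd79b UMIs lay outside the comparison. They numbered 9 of 4734 kept barcodes in the control library (0.190%, exact 95% interval 0.0870 to 0.361), 6 of 5509 in the day 4 library (0.109%, 0.0400 to 0.237) and 64 of 10670 in the day 21 library (0.600%, 0.462 to 0.765). The day 21 share stood above that of the control. In the 64 barcodes Dntt supplied 426 UMIs and was found in 58, against 23 UMIs of Vpreb1 and 10 of Igll1. Flt3 and Cd34, genes of uncommitted blood progenitors, stood at 246 and 399 CPM, against 17.7 and 33.3 CPM in early B barcodes. Ebf1, of B lineage commitment, stood at 77.3 CPM, against 1907 CPM in early B barcodes.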

How the results depend on the processing

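No paired analysis was possible because each group has 1 library and the labels give no replicate numbers. The early B share of 1.62% was 2.24% with a rule of 1 early UMI, 0.839% after thinning to 1000 UMIs and 1.31% without Rag1 in the rule. The 1172 higher and 1007 lower genes were 740 and 512 after thinning, 2772 and 3223 with no minimum of UMIs, and 755 and 579 with a minimum of 50, where fewer or more genes are counted. The other values are log2 ratios of list sums, in the order light chain, MHC class II, S phase, G2/M and V(D)J (-3.81, -4.31, 1.99, 1.92 and 1.65 in the report), where they moved beyond their interval. With 500 genes and 10% mitochondrial UMIs they were -4.45, -3.11, 1.58 and 1.30. With 1 early UMI, light chain was -3.44 and S phase 1.90, and with 3, light chain -4.09 and G2/M 1.98. Without marked doublets they were -3.03, -5.48, 2.10 and 2.02. After thinning they were -2.92, -5.39, 2.11, 2.42 and 1.81. As means over barcodes, light chain was -2.68, MHC class II -5.32 and G2/M 2.33. With the median of all genes set to 0, light chain was -3.93, S phase 1.87 and G2/M 1.80. With 3 UMIs of the mature genes, light chain was -3.56 and G2/M 2.10. Leaving out dividing early B barcodes, chosen after seeing the data, gave -2.87, -5.56, 0.36, -0.23 and 1.35, and 664 lower genes. G2/M thereby changed sign, as did Ckap2l (-1.91), Mki67 (-1.21) and Top2a (-3.98), of which Mki67 and Top2a defined the barcodes left out. Leaving them out of both classes, also chosen later, gave -3.10, -5.81, 1.06 and 1.09 for the first 4 lists, 614 lower genes and a reversed Top2a (-0.48). Leaving out barcodes with other lineages, also chosen later, gave -2.89, -4.05, 2.45, 2.69 and 1.84. Other causes were not tested. For the 98 single genes checked that were past 2-fold, 1270 of 1274 alternative values kept their direction. For the 12 checked under 2-fold, 144 of 156 did. Many of these genes were picked from the same data for large ratios, so a kept direction was likely from the start. Depth limits single genes, since 20 UMIs over both sums give wide intervals, and 1 library per group limits every comparison in time.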
